A study of Mus musculus with 10 samples.

Results

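Epithelial-mesenchymal state was followed through 10 genes in tumors grown from the mouse lung cancer line KPN1.1. The 4 epithelial genes were Cdh1 (E-cadherin), Epcam and the simple keratins Krt8 and Krt18. The 6 mesenchymal genes were Cdh2 (N-cadherin), the intermediate filament gene Vim, and the transcription factors Zeb1, Zeb2, Snai1 and Snai2. They were chosen as a list, by gene symbol and not by their values, though with earlier results of these data known. Each of the 10 was found once among the 55401 gene identifiers of the count table. All 10 were among the 17464 genes with enough counts to be tested.

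The tumors came from obese male C57BL/6J mice kept on a diet with 60% of calories from fat, which were 7 to 17 weeks old when 75000 cells were injected under the skin of the flank. From the time a tumor could be felt, 5 mice received liraglutide, an agonist of the GLP-1 receptor, at 0.2 µg per gram of body weight daily into the peritoneum, and 5 received the PBS vehicle. Mice were killed 19 to 22 days after injection. The line carries the NINJA allele and is labelled lung adenocarcinoma. All 10 tumors therefore descend from 1 cell line and hold host cells as well as cancer cells, and neither untransplanted cells nor tumors of lean mice were among the samples used here.

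Epithelial cells hold to each other through E-cadherin and carry a network of keratins 8 and 18, while Epcam is a surface glycoprotein of most simple epithelia. In epithelial-mesenchymal transition, cells lose these features and gain vimentin and, often, N-cadherin. Zeb1, Zeb2, Snai1 and Snai2 encode zinc finger repressors that bind E-box sequences, with CAGGTG as the best known form, and Cdh1 is their classical target. Carcinoma cells can also hold both sets of genes at once. In a whole tumor, fibroblasts, endothelial cells and leukocytes also express Vim and several of the transcription factors, so that fewer cells of a type and less RNA per cell cannot be told apart in these values.

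The promoters of the epithelial genes that could be read are shown because the repressors on the list act through the E-box CAGGTG, whose other strand reads CACCTG. RefSeq windows, on GRCm38.p6, were found for 6 of the 10 genes (Epcam, Krt8, Krt18, Vim, Zeb2 and Snai1). The 250 bases before the start site are given 5′ to 3′ on the strand of the gene, with either reading of the E-box in capitals, or, for Vim, which had none, with TATAAA in capitals. The windows lie at chr17:87635729-87635978 on the plus strand for Epcam, at chr15:102004343-102004592 on the minus strand for Krt8, at chr15:102027966-102028215 on the plus strand for Krt18 and at chr2:13574061-13574310 on the plus strand for Vim.
Epcam: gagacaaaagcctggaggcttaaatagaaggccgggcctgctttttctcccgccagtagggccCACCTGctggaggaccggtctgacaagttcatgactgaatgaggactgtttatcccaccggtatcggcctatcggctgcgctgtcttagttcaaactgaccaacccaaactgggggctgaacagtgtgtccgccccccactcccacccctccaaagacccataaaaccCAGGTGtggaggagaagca
Krt8: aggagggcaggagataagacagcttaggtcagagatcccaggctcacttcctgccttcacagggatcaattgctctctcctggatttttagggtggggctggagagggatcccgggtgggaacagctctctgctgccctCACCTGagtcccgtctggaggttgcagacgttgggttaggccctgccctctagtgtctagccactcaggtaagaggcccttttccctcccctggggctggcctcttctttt
Krt18: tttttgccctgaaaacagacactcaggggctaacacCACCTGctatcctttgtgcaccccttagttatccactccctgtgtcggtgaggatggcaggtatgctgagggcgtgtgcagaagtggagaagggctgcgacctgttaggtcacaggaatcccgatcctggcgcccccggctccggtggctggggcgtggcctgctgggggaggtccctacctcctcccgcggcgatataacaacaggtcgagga
Vim: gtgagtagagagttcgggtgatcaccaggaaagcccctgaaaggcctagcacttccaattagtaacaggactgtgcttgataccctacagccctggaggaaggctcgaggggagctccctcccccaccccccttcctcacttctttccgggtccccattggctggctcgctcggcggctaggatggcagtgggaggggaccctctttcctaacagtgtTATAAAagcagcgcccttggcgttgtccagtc
The Epcam window held 2 such E-boxes, whose first bases lay at -187 and -19 from the start site. The Krt8 window held 1, at -111, and the Krt18 window 1, at -214. Of the 32851 windows of this length, 17.2% held at least 1 and 2.1% at least 2. The Snai1 window also held 1, at -126, and none of the 4 Zeb2 windows did. TATAAA on the gene's own strand was in 7.6% of the windows. A match describes these letters alone and is not a measured binding site.

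Vim and the 2 keratins were far above the other members in the vehicle tumors, and Cdh1 came next. Levels were set side by side as CPM, a count scaled to the TMM-normalized library size of its tumor, per kilobase of the canonical transcript. In the vehicle tumors, Vim was at 1478 ± 265 CPM per kilobase (SD, n = 5), Krt8 at 1243 ± 333 and Krt18 at 1124 ± 229.5. They ranked 11, 16 and 17 among 17267 tested genes with a length. The ranges of Vim and Krt8 overlapped, and so did those of Krt8 and Krt18, so these 3 were not separated beyond the spread between tumors.

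Cdh1 followed at 255 ± 159 CPM per kilobase (SD, n = 5), rank 151, below every Krt18 value and above every Cdh2 value. Cdh2 and Zeb2 were at 23.7 ± 1.65 and 22.2 ± 1.84, with overlapping ranges, and Zeb1 was at 15.0 ± 3.20, below the lowest Zeb2 value. Snai2 (3.28 ± 0.903), Snai1 (2.39 ± 0.806) and Epcam (1.41 ± 1.09) closed the order, each overlapping the next. Epcam stood at percentile 19.4 of the tested genes, although it is a common marker of carcinoma cells, while Cdh1 stood at percentile 99.1. With all annotated exons as the length, Vim was at 682 CPM per kilobase, below both keratins, and Zeb1 (6.37) was above Zeb2 (5.88), with Cdh2 at 13.5, so the order within these pairs depends on the length used.

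**Figure D1:**
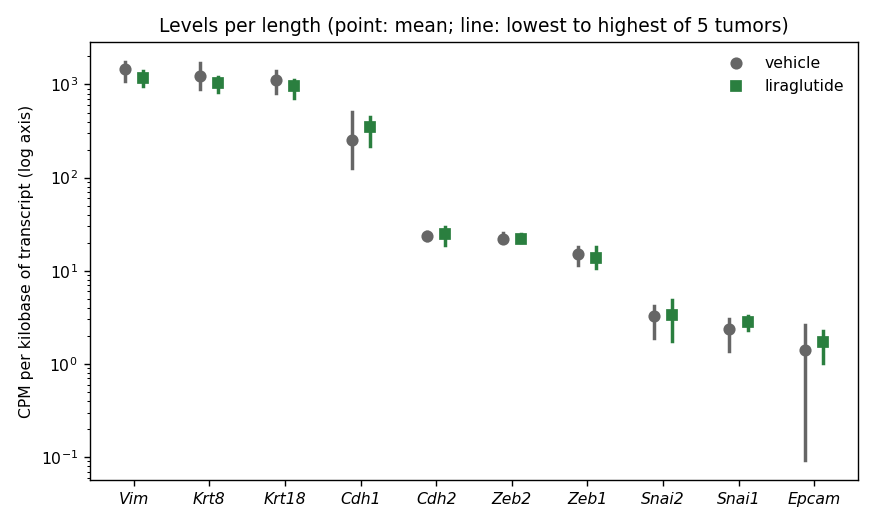
Mean level of each gene in CPM per kilobase of canonical transcript on a log axis, in 5 vehicle tumors (circles) and 5 liraglutide tumors (squares), with lines from the lowest to the highest tumor. Vim, Krt8, Krt18 and Cdh1 stand above Cdh2 in both groups, and Epcam is last, with a vehicle tumor at 0.0934.

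The RNA of each whole tumor thus held E-cadherin, keratin 8, keratin 18 and vimentin at high levels at the same time. The ratio of Cdh1 to Cdh2, both per kilobase, was above 1 in every tumor and ran from 5.38 in vehicle tumor 1 to 23.3 in vehicle tumor 5. The ratio of Cdh1 to Vim was below 1 in every tumor, from 0.0813 to 0.404. With all annotated exons these ratios ran from 9.05 to 39.3 and from 0.168 to 0.837. The ratio of Krt8 to Krt18, whose proteins pair in 1 filament, stayed between 0.887 and 1.32.

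The label of the line was checked against 12 lung adenocarcinoma lineage markers. Nkx2-1, the lung lineage transcription factor, was between 17.7 and 132 CPM in the 10 tumors, and the surfactant gene Sftpb between 65.1 and 530.3. Sftpc, Sftpa1, Sftpd and Hopx, genes of alveolar cells, were at or below 17.3 CPM in every tumor and at 0 in at least 1 vehicle tumor each, and the alveolar protease gene Napsa was between 0.420 and 2.55. Hnf4a, a transcription factor of the gut and liver, was between 171 and 390.3 CPM, Foxa1 between 25.1 and 63.5, and Foxa2 between 30.6 and 68.7. Scgb1a1 of club cells was between 0.652 and 20.4 CPM, and Ager of type I alveolar cells between 2.63 and 33.2.

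Cdh1, the calcium-dependent adhesion molecule of adherens junctions (chromosome 8, 107329941 to 107396880, plus strand, GRCm39), varied 3.99-fold over the 10 tumors. In the vehicle tumors it was at 559.9, 617, 814, 1417 and 2236 CPM (tumors 1 to 5). In the liraglutide tumors it was at 1440.4, 966, 1969, 1708 and 1711 CPM. Vehicle tumors 1, 2 and 3 lay below all 5 liraglutide tumors, whereas vehicle tumor 5 lay above them all, so the groups overlapped.

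The means were 1129 ± 706 CPM in vehicle and 1559 ± 381 CPM in liraglutide tumors (SD, n = 5 each). The log2 fold change, liraglutide against vehicle, was 0.47 with a standard error of 0.36, and edgeR gave an adjusted p of 0.678, so the difference did not exceed the spread between tumors. The spread among vehicle tumors, a coefficient of variation of 62.6%, was at percentile 90.9 of all tested genes. The fold change depended on single tumors. Without vehicle tumor 5 the log2 fold change of Cdh1 was 0.88 ± 0.29 (SE), with an edgeR adjusted p of 0.311, and without vehicle tumor 1 it was 0.29. Over all fits with 1 tumor left out, the edgeR adjusted p of Cdh1 ran from 0.311 to 0.915, and over the other alternatives from 0.304 to 0.890.

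Epcam (chromosome 17, 87943407 to 87958557, plus strand) was low in every tumor. The vehicle tumors were at 4.63, 4.06, 1.05, 2.43 and 0.163 CPM, and the liraglutide tumors at 3.28, 3.43, 3.94, 2.55 and 1.79 CPM. These values rest on 67 counts at most and on 2 counts in vehicle tumor 5, which had the highest Cdh1. That tumor lay below the level of 3 counts (0.244 CPM), and its exact 95% Poisson interval was 0.0197 to 0.588 CPM, below the interval of every liraglutide tumor (counting error only).

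The groups of Epcam overlapped, since vehicle tumors 1 and 2 were above all liraglutide tumors and vehicle tumors 3 and 5 below them all. The means were 2.46 ± 1.90 and 3.00 ± 0.841 CPM (SD, n = 5 each), with a log2 fold change of 0.27 ± 0.58 (SE) and an edgeR adjusted p of 0.885. Without vehicle tumor 5 the log2 fold change was -0.03. Epcam and Cdh1 did not run in parallel: vehicle tumors 1 and 2 had the highest Epcam and the lowest Cdh1.

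Krt8 and Krt18, the paired type II and type I keratins of simple epithelia, lie close together on chromosome 15 (101905133 to 101912917 on the minus strand, and 101936615 to 101940462 on the plus strand). Krt8 was at 1769.6, 2058, 2948, 2103 and 3294 CPM in the vehicle tumors and at 2312, 1631, 2349, 2212 and 1645 CPM in the liraglutide tumors. Vehicle tumors 3 and 5 were above every liraglutide tumor, and the other vehicle tumors lay within the liraglutide range. The means were 2435 ± 651 and 2029.7 ± 361 CPM (SD, n = 5 each), a log2 fold change of -0.26 ± 0.19 (SE) with an edgeR adjusted p of 0.657. With each tumor left out in turn it ran from -0.36 to -0.12, the latter without vehicle tumor 5.

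Krt18 was at 1447, 1604, 1999, 1166 and 1857 CPM in the vehicle tumors and at 1599, 1350.1, 1354, 1527 and 1039 CPM in the liraglutide tumors. Vehicle tumors 2, 3 and 5 were the highest of all, while vehicle tumor 4 was the second lowest, so the groups overlapped. The log2 fold change was -0.23 ± 0.16 (SE) with an edgeR adjusted p of 0.643, and it ran from -0.32 to -0.14 with each tumor left out, -0.14 being the value without vehicle tumor 3 or liraglutide tumor 5. The epithelial members therefore did not share a direction, with Cdh1 and Epcam having positive and both keratins negative fold changes, none beyond the spread. A processed pseudogene, Krt8-ps, matched the Krt8 transcript at 98.6% over 941 bases. It held 35 to 133 counts, against 19984 or more for Krt8. How reads that match both were counted is not given in the sources used here.

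**Figure D2:**
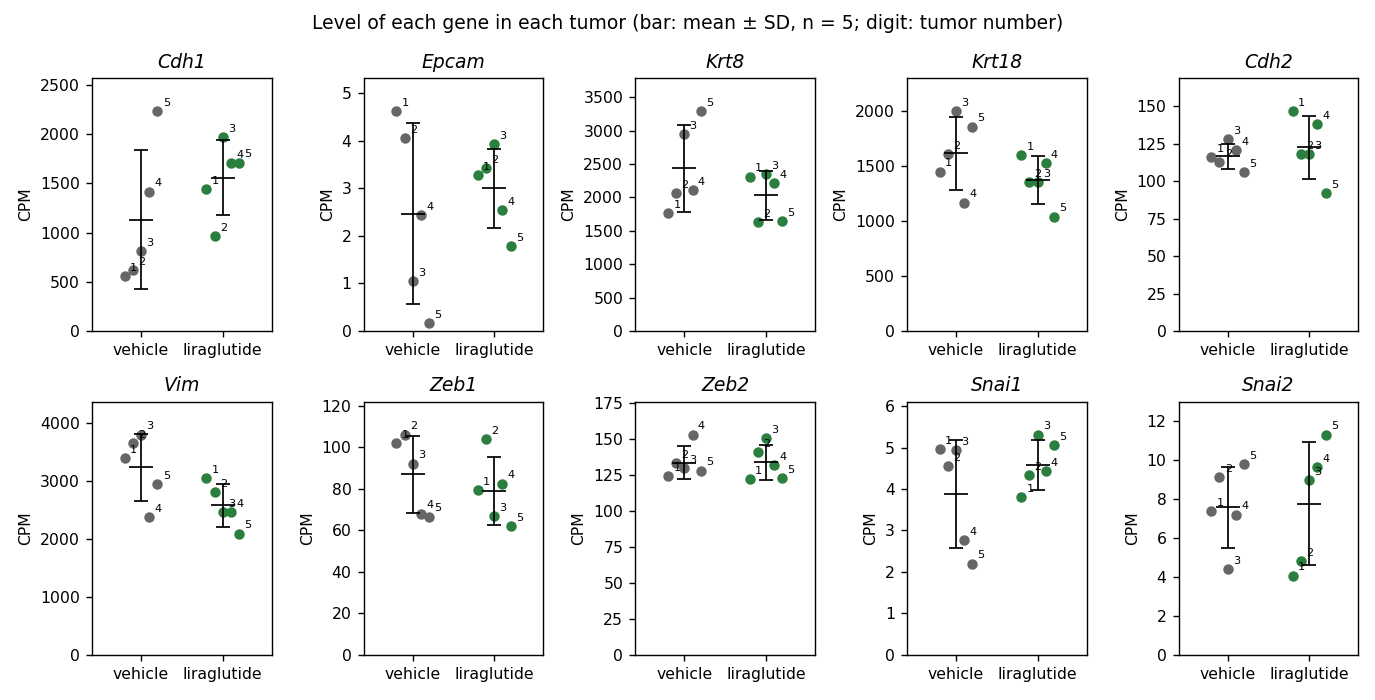
CPM of each gene in each tumor, 1 panel per gene with its own axis from 0, vehicle in grey and liraglutide in green, with the tumor number beside each point and the mean ± SD of 5 tumors as bars. In all 10 panels the groups overlap, and the vehicle tumors spread widely for Cdh1 (559.9 to 2236) and little for Cdh2 (106 to 128).

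Vim, the main intermediate filament gene of mesenchymal cells (chromosome 2, 13578738 to 13587639, plus strand), had the smallest p of the 10 genes. The vehicle tumors were at 3407, 3657, 3806, 2378 and 2954 CPM and the liraglutide tumors at 3059.9, 2818, 2471, 2467 and 2095 CPM. Vehicle tumors 1, 2 and 3 were above every liraglutide tumor, whereas vehicle tumor 4 was below all but liraglutide tumor 5.

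The means of Vim were 3241 ± 580.4 and 2582 ± 369.8 CPM (SD, n = 5 each), and the log2 fold change was -0.33 ± 0.15 (SE). The edgeR unadjusted p was 0.0487 and the adjusted p 0.519, so Vim did not pass the test. Leaving out 1 tumor at a time gave log2 fold changes from -0.41 to -0.26.

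Cdh2, the cadherin of neural and mesenchymal cells (chromosome 18, 16700793 to 16942381, minus strand), varied little among the vehicle tumors. It was at 116, 113, 128, 121 and 106 CPM in the vehicle tumors and at 147, 118, 118, 138 and 92.3 CPM in the liraglutide tumors. The liraglutide tumors reached above and below the whole vehicle range. The log2 fold change was 0.07 with an edgeR adjusted p of 0.862, and the vehicle coefficient of variation of 6.98% was at percentile 3.29 of all tested genes, whereas that of the liraglutide tumors was at percentile 43.9.

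Zeb1 (chromosome 18, 5591851 to 5775467, plus strand) and Zeb2 (chromosome 2, 44873644 to 45007464, minus strand) encode the 2 related ZEB repressors. Zeb1 was at 102, 106, 92.1, 68.0 and 66.5 CPM in the vehicle tumors and at 79.3, 104, 66.6, 82.4 and 62.1 CPM in the liraglutide tumors. Vehicle tumors 1 to 3 and liraglutide tumor 2 stood above the other 6 tumors. Its log2 fold change was -0.14, with an edgeR adjusted p of 0.801. With each tumor left out it ran from -0.25 (without liraglutide tumor 2) to -0.06 (without vehicle tumor 2 or liraglutide tumor 5).

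Zeb2 was at 124, 133, 130.0, 153 and 128 CPM in the vehicle tumors and at 122, 141, 150.5, 132 and 123 CPM in the liraglutide tumors. Vehicle tumor 4 was the highest of the 10 and liraglutide tumor 1 the lowest, and the 2 groups covered nearly the same range. Its log2 fold change was -0.0002 with an edgeR adjusted p of 0.999, and its sign turned under several alternatives. The ratio of Zeb2 to Zeb1 per kilobase ran from 1.18 in vehicle tumor 1 to 2.17 in liraglutide tumor 3 with the canonical transcripts, and from 0.733 to 1.36 with all annotated exons, so which of them is higher depends on the length.

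Snai1 (chromosome 2, 167380113 to 167384734, plus strand) and Snai2 (chromosome 16, 14523425 to 14527252, plus strand) encode the Snail and Slug repressors, and both were low. Snai1 was at 4.97, 4.56, 4.93, 2.76 and 2.20 CPM in the vehicle tumors and at 3.80, 4.33, 5.31, 4.44 and 5.06 CPM in the liraglutide tumors. Vehicle tumors 4 and 5 were lowest, below all liraglutide tumors, and the other 3 lay within the liraglutide range. The log2 fold change was 0.24 with an edgeR adjusted p of 0.747, and it was 0.15 without vehicle tumor 4 and 0.10 without vehicle tumor 5.

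Snai2 was at 7.39, 9.12, 4.41, 7.20 and 9.77 CPM in the vehicle tumors and at 4.06, 4.82, 8.95, 9.64 and 11.3 CPM in the liraglutide tumors. Liraglutide tumors 1 and 2 were low and 3 to 5 high, and their range reached beyond the vehicle range on both sides. The log2 fold change was 0.03 with an edgeR adjusted p of 0.980, and its sign turned under several alternatives.

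None of the 10 genes passed the threshold, which asked for an edgeR adjusted p under 0.05 together with a log2 fold change beyond 0.58 in either direction. None of the 17464 genes tested did (percent called 0), and the smallest adjusted p over all genes was 0.482, against 0.519 among the 10. With 1 tumor left out, the smallest edgeR adjusted p over all genes ran from 0.0526 (without vehicle tumor 4) to 0.900 (without liraglutide tumor 5). At an unadjusted p under 0.05, 1 of the 10 genes was called (Vim, lower), beside 9.59% of all genes tested and 5.62% in the lower direction. With library size alone as the scaling, the balance over all genes turned, from 694 higher and 981 lower to 990 higher and 619 lower (5.67% and 3.54%), and Vim was then not called. DESeq2 called 21 genes (0.120%) and none of the 10 by the same threshold, and 1 of the 10, again Vim, at an unadjusted p under 0.05, beside 10.6% of all genes and 6.01% in the lower direction. Vim was at 0.05 or more with limma-voom (unadjusted p = 0.0511), DESeq2 size factors (0.0514), library size alone (0.0688), both other filters (0.0517 and 0.0608) and 7 of 10 edgeR fits with 1 tumor left out. In the fits without vehicle tumor 4 (Vim and Krt18) and without vehicle tumor 5 (Vim and Cdh1), 2 members were under 0.05. Over all genes tested, 2704 of 17816 and 2409 of 17793 were under 0.05 in these fits. The groups overlapped in all 10 genes, beside 1.49% of all genes whose groups did not overlap. Of the 10 fold changes 5 were positive and 5 negative, beside 52.6% negative over all genes tested, and their median was 0.02, against -0.02 over all genes.

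**Figure D3:**
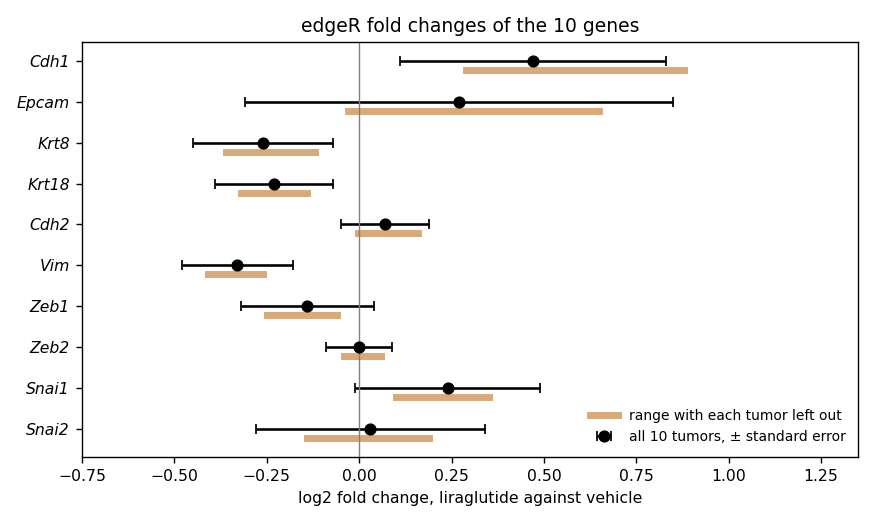
log2 fold change of each gene, liraglutide against vehicle, from edgeR with all 10 tumors (black points, ± standard error) and the range over fits with 1 tumor left out (orange bars). Vim, at -0.33, lies more than 2 standard errors from 0, and the bar of Cdh1 reaches from 0.29 to 0.88.

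The closest relation between 2 members over the tumors was that of Cdh1 and Zeb1, though no pair passed after adjustment. Over the 10 tumors, log2 CPM of Cdh1 and Zeb1 gave Pearson's r = -0.88 (permutation p = 0.00210, adjusted p = 0.112) and Spearman's rho = -0.85 (permutation p = 0.00325, adjusted p = 0.229). All p-values of correlations were two-sided and were adjusted over 85 pairs, 45 between members and 40 between a member and a marker list. With the group means removed r was -0.89, with a permutation adjusted p of 0.0527. Without vehicle tumors 1 and 2, the 2 tumors farthest from the median of Cdh1, r was -0.81, with a permutation adjusted p of 0.406. Vehicle tumors 1 and 2 had the lowest Cdh1 and high Zeb1, and vehicle tumor 5 had the highest Cdh1 and low Zeb1.

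Vim had a positive r with Zeb1 and a negative one with Cdh1. For Cdh1 and Vim r was -0.73 and rho -0.60 (permutation adjusted p = 0.165 and 0.567), and -0.58 without vehicle tumors 1 and 2. For Vim and Zeb1 r was 0.74 and rho 0.64 (permutation adjusted p = 0.165 and 0.567), and 0.67 without vehicle tumor 3 and liraglutide tumor 5. Krt8 and Krt18 had r = 0.77 and rho = 0.68 (permutation adjusted p = 0.112 and 0.425), but r was 0.49 without vehicle tumors 3 and 5. Krt18 and Vim, an epithelial and a mesenchymal gene, had r = 0.79 and rho = 0.81 (permutation adjusted p = 0.112 and 0.229), and 0.53 without vehicle tumor 3 and liraglutide tumor 5.

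For Cdh1 with the other epithelial genes r was 0.34 for Krt8, -0.20 for Krt18 and -0.46 for Epcam (permutation adjusted p = 0.748, 0.862 and 0.748; rho 0.44, -0.14 and -0.53). With the group means removed r was 0.64 for Krt8, -0.01 for Krt18 and -0.75 for Epcam (permutation adjusted p = 0.266, 0.982 and 0.141). Of the 85 pairs, 12 had an unadjusted permutation p of r under 0.05. Without the 2 tumors farthest from the median, which differed between pairs, 3 of these still did. They were Zeb1 with Cdh1, and Zeb1 and Vim with the leukocyte markers (permutation p = 0.0155, 0.0270 and 0.00383). For the other 9 the permutation p was 0.05 or more over the 8 tumors left. Epcam and Krt8 were among the 12 with r = -0.71 (rho -0.48), which became 0.18 without vehicle tumors 3 and 5. Cdh2 and Snai2 had r = -0.63 (rho -0.68), and -0.22 without liraglutide tumors 1 and 5.

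**Figure D4:**
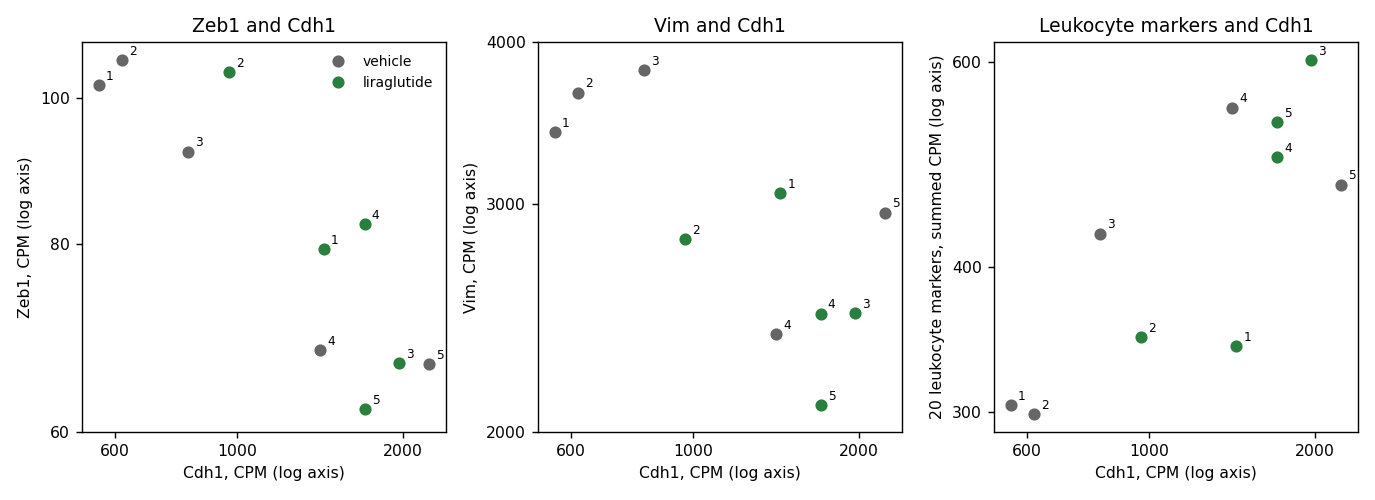
Zeb1, Vim and the summed level of 20 leukocyte markers, in CPM on log axes, each against Cdh1 in CPM on a log axis, with 1 numbered point per tumor, vehicle in grey and liraglutide in green. Zeb1 is highest in vehicle tumor 2 and Vim in vehicle tumor 3, where Cdh1 is low, and the leukocyte markers are lowest in vehicle tumors 1 and 2.

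The leukocyte markers followed a similar order of the tumors. Their summed level was 299 to 548 CPM in the vehicle and 342 to 602 CPM in the liraglutide tumors, and of the 18 markers tested 15 had a positive fold change and 0 passed the threshold. None of the 20 listed was at 0 in all tumors, though the B cell gene Ms4a1 was at 0 in 2. For correlations, the markers of a list were combined as the mean of their standardized log2 CPM. Cdh1 had a positive relation to this leukocyte score (r = 0.84, rho = 0.75, permutation adjusted p = 0.112 and 0.295). Zeb1 (r = -0.86, rho = -0.79, permutation adjusted p = 0.112 and 0.229) and Vim (r = -0.80, rho = -0.78, permutation adjusted p = 0.112 and 0.229) had negative ones. The leaving out of 2 tumors, not the same 2 for each gene, gave r = 0.62 for Cdh1 (without vehicle tumors 1 and 2). It gave -0.78 for Zeb1 (without vehicle tumor 2 and liraglutide tumor 5) and -0.90 for Vim (without vehicle tumor 3 and liraglutide tumor 5). The part of leukocyte RNA in the values of Cdh1, Zeb1 and Vim was not tested.

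Fibroblast markers, which include collagen genes, summed to 1755 to 4134 CPM in the vehicle and 2391 to 4039.9 CPM in the liraglutide tumors, with 6 of 12 higher and 0 past the threshold. At an edgeR unadjusted p under 0.05, 2 of the 12 were higher and 0 lower (beside 3.97% and 5.62% over all genes). Vehicle tumors 4 and 5 were lowest, at 1825 and 1755 CPM, and these were also the tumors with the lowest Snai1. For Snai1 and the fibroblast score (mean standardized log2 CPM) r was 0.83 and rho 0.49 (permutation adjusted p = 0.112 and 0.831). Without these 2 tumors r was 0.08, so the relation rested on them. None of the 12 markers was at 0 in any tumor, and the part of fibroblast RNA in Snai1 was not tested.

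Keratinocyte markers, genes of the skin epithelium, were uneven among the liraglutide tumors. Of the 8 tested, 8 had a positive fold change, 6 of them with an edgeR unadjusted p under 0.05 (beside 3.97% higher over all genes), and 0 passed the threshold. Their sum was 11.8 to 37.4 CPM in the vehicle and 15.7 to 252 CPM in the liraglutide tumors, with 252 in tumor 2, 107 in tumor 4 and 73.7 in tumor 5. Krt5 was at 0 in 4 tumors, Krt1 in 5, Dsg1a in 2 and Krtdap in 3. Keratinocytes also express Cdh1. Liraglutide tumor 2, with the highest sum, had the lowest Cdh1 of its group (966 CPM). Without those 3 tumors, a choice made after seeing the data, the log2 fold change was 0.61 for Cdh1, 0.57 for Epcam, -0.04 for Krt8, -0.11 for Krt18, 0.20 for Cdh2, -0.21 for Vim and -0.23 for Zeb1, none past the threshold. The part of keratinocyte RNA in these values was not tested.

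The other genes of the epithelial and mesenchymal programs were followed in 8 lists of 110 genes, of which 93 were tested. None passed the threshold. At an edgeR unadjusted p under 0.05, 14 were higher in liraglutide tumors and 1 lower, which is 16.1% of the 93 beside 9.59% of all genes tested (3.97% higher and 5.62% lower). The smallest adjusted p in any list was 0.482. The 14 were 4 of the 53 tested genes in the 5 epithelial lists and 10 of the 40 in the 3 mesenchymal and matrix lists. With library size alone they were 6 of 53 and 11 of 40, beside 5.67% higher over all genes.

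Epithelial regulators are transcription and splicing factors that keep epithelial genes active, and 7 of 11 were tested, with 4 higher and 3 lower. Ehf, an ETS factor of epithelia, was at 8.45 ± 6.64 CPM in vehicle and 18.6 ± 4.00 CPM in liraglutide tumors (SD, n = 5 each), a log2 fold change of 1.14 with an edgeR adjusted p of 0.482. Vehicle tumor 4 was at 20.2 CPM, within the liraglutide range. The 4 regulators below the filter were Grhl2, Grhl3, Ovol1 and Ovol2, named here after their values were seen, and none of them was above 1.55 CPM in any tumor.

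Tight junction and polarity genes had 17 of 20 members tested, 14 higher and 3 lower, and a median fold change (log2) of 0.20. Occludin (Ocln), a membrane protein of tight junctions, was at 16.6 ± 11.5 and 27.8 ± 10.4 CPM (SD, n = 5 each), a log2 fold change of 0.74 with an edgeR adjusted p of 0.588, and Cldn23 had -0.82 with an adjusted p of 0.593. The claudins Cldn1, Cldn4 and Cldn6, chosen after their values were seen as the 3 below the filter, were at 2.61 CPM or lower in every tumor. Surface and protease genes of epithelia had 9 of 14 tested, 6 higher and 3 lower. Itgb6, the epithelial integrin subunit that activates TGF-beta, was at 13.1 ± 8.60 and 37.0 ± 23.5 CPM, a log2 fold change of 1.50 with an edgeR adjusted p of 0.494, and Itgb4 had 0.30 with an adjusted p of 0.560. St14, Prss8, Rab25 and Ap1m2 (also named after their values were seen) were below the filter, at 1.09 CPM or lower in every tumor.

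Genes of adherens junctions, where E-cadherin sits, and of desmosomes were all tested, 14 of 16 higher and 2 lower, and their median on the log2 scale was 0.20. Jup (plakoglobin), which links cadherins to the cytoskeleton, was at 129, 118, 156, 141 and 137 CPM in the vehicle and 202, 172, 163, 164 and 167 CPM in the liraglutide tumors. Its groups did not overlap, and its log2 fold change was 0.35 ± 0.10 (SE), with an edgeR unadjusted p of 0.00498 and an adjusted p of 0.482. Nectin2, an adhesion molecule of adherens junctions, had 0.58 (edgeR adjusted p = 0.482). The gene lower at an unadjusted p under 0.05 was Pkp2 of desmosomes, named after its value was seen, with -0.27 (edgeR adjusted p = 0.515).

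Of the other simple keratins, Krt19 and Krt20 were also abundant, and like Krt8 and Krt18 they had no difference beyond the spread. Krt19 was at 1339.8 ± 591 and 1066 ± 218 CPM (SD, n = 5 each), a log2 fold change of -0.33 with an edgeR adjusted p of 0.689, and Krt20, a keratin of the gut epithelium, was at 946 ± 219 and 833 ± 206 CPM, with -0.18 and an adjusted p of 0.746. The list of 4 had 2 higher and 2 lower.

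On the mesenchymal side, 9 of 13 other transcription factors of the transition were tested, 6 higher and 3 lower. Prrx2, a homeobox factor of mesenchyme, was at 3.84 ± 1.61 and 6.83 ± 1.02 CPM (SD, n = 5 each) without overlap of the groups, a log2 fold change of 0.83 with an edgeR adjusted p of 0.482, and Foxc1 had 1.00 with the same adjusted p. The 4 below the filter, chosen after their values were seen, were Twist2, Snai3, Foxc2 and Gsc, with Gsc at 0 in every tumor. Adhesion and cytoskeleton genes had 17 of 18 tested, 10 higher and 7 lower, with a median of 0.04. Itgb3, the beta subunit of a vitronectin receptor, was at 42.3 ± 12.3 and 81.7 ± 32.7 CPM, a log2 fold change of 0.95 (edgeR adjusted p = 0.482), and Cdh11, a cadherin of mesenchymal cells, at 32.1 ± 1.07 and 50.3 ± 16.0 CPM, 0.65 (edgeR adjusted p = 0.482).

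Matrix genes and outputs of TGF-beta, a main inducer of the transition, had all 14 members tested, 10 higher and 4 lower, with 6 higher at an edgeR unadjusted p under 0.05 (beside 3.97% of all genes) and a median log2 fold change of 0.23. The TGF-beta receptor gene Tgfbr2 was at 101 ± 28.4 and 165 ± 43.3 CPM (SD, n = 5 each), a log2 fold change of 0.70 with an edgeR adjusted p of 0.482. Ccn2, a matrix-associated gene that TGF-beta induces, was at 53.4 ± 15.3 and 85.7 ± 19.9 CPM, 0.68 with the same adjusted p. None of these genes passed the test, and fibroblasts express many of them.

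**Figure D5:**
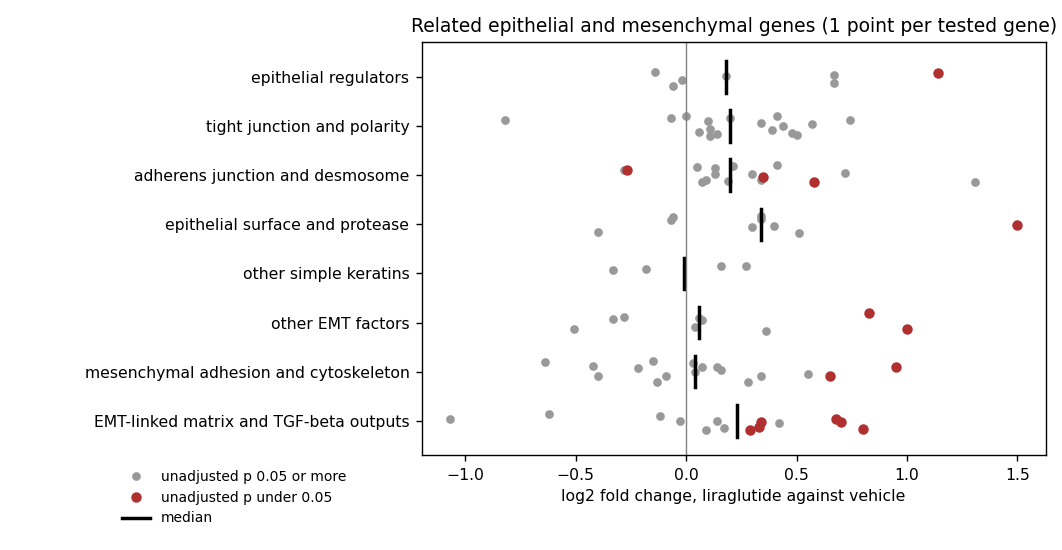
log2 fold change, liraglutide against vehicle, of the 93 tested genes in 8 lists, 1 point per gene and a black line at each list's median. Red points have an edgeR unadjusted p under 0.05 (15 genes), and none of the 93 has an adjusted p below 0.482.

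The genes whose log2 CPM followed each member most closely over the 10 tumors were picked by Pearson's r from all tested genes, so high values are given by the choice. For Cdh1 Os9, a factor of endoplasmic reticulum quality control, is given (r = 0.99), and for Epcam Rilpl1 (0.97) and Sytl5 (0.92). Krt8 had Sdcbp2 (0.96) and Nrn1 (0.95), and Krt18 had the keratin Krt13 (0.95) and the phosphate transporter gene Slc20a2 (0.95). The mesenchymal members had Gm28119 (0.92) and Srgap1 (0.91) for Cdh2, and the histone gene H2bc8 (0.98) and Gm13689 (0.97) for Vim. The repressors had 1700125H03Rik (0.99) and Map2k6 (0.98) for Zeb1, Cdo1 (0.89) and Qpct (0.87) for Zeb2, Sfrp1 and Adamts15 (0.95 each) for Snai1, and Nkx6-3 (0.95) and Slc50a1 (0.93) for Snai2. Members were left out of the search.

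The vehicle tumors with the lowest Cdh1 also stood apart over all genes. Component 1 of a principal component analysis took 48.7% of the variance in log2 CPM and ran from -69.3 in vehicle tumor 1 and -67.2 in vehicle tumor 2 to 49.7 in liraglutide tumor 3 and 49.6 in liraglutide tumor 5, with vehicle tumors 4 and 5 at 38.5 and 39.3. The vehicle tumors were thus spread over most of it, as they were over the range of Cdh1. Total counts were between 9927942 and 14480593 per tumor.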

How the data were processed

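RNA of 10 tumors was sequenced from rRNA-depleted, strand-marking libraries (500 ng RNA, 100-base read pairs). The authors deposited raw counts per gene. Per their methods, TopHat 2.0.13 with Bowtie 1.0.1 placed the reads on GRCm39 and featureCounts counted them, and samples were filtered after quality assessment, whereas the submitters' processing notes list mm10 and GRCh38. The annotation release, the strand setting and the handling of multi-mapped reads are not given in the sources used here. Groups and tumor numbers came from the sample labels. Same-numbered tumors came from different mice, and no batch is given. Identifiers were matched without version to GENCODE M39 (51731, 93.38%, of which 35 had the same version), which gave symbols, GRCm39 positions and lengths. The smallest level taken as measured, 3 counts, was 0.207 to 0.315 CPM on the scale printed. Tumors of a group differed by at least 9.31 times counting noise (chi-square per degree of freedom).

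In R 4.3.3, edgeR 4.0.16 (filterByExpr, TMM, quasi-likelihood F test, Benjamini-Hochberg over 17464 genes) was used, with CPM taken over each tumor's total in the tested genes times its TMM factor. Genes passed at an adjusted p under 0.05 with a log2 fold change beyond 0.58 either way. DESeq2 1.42.0, limma 3.58.1 (voom), other filters (at least 1 count in all, or at least 10 in every tumor) and scalings, and each tumor left out were alternatives. The study used DESeq2. Scripts were tested on simulated data. Correlations used log2 CPM (prior count 2), standardized per gene and averaged for a marker list, with 100000 permutations. The members, related lists and marker lists (leukocyte, fibroblast, endothelial, keratinocyte, skeletal muscle, adipocyte, lung adenocarcinoma lineage) were chosen with earlier results of these data known. Named besides the members were, in each list, the 2 genes of smallest p and any past the threshold, all lung lineage markers, and the 2 tested genes most like each member. Of the 12 keratinocyte markers 11 were found. A few items that these rules would name are not reported here.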

Additional observations from a re-analysis of the deposited data

Results flagged for a closer look

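Values far from the other tumors of their group were searched for by Dixon's test in 100 groups of 5 tumors, from 50 genes, and 13 were found, where chance gives about 1 in 20. None was a value of the 10 members. Ehf was high in vehicle tumor 4 (20.2 CPM, nearest other 6.52) and low in liraglutide tumor 2 (11.8 CPM). Jup was high in liraglutide tumor 1 (202 CPM, nearest 172), and Krt20 in vehicle tumor 5 (1328 CPM, nearest 904), which also had the highest Krt8 and Cdh1. Liraglutide tumor 2, with the highest keratinocyte markers, was high in Krt14 (93.9 CPM, nearest 26.2) and low in Ccn2 (50.9 CPM) and Foxa2 (38.2 CPM). Among lung lineage markers, Sftpc (4.85 CPM) and Ager (22.4 CPM) were high in vehicle tumor 4, Sftpa1 (17.3 CPM) and Sftpd (2.31 CPM) in liraglutide tumor 5, and Scgb1a1 (20.4 CPM) in liraglutide tumor 3. The adipocyte gene Adipoq was high in vehicle tumor 3 (6.30 CPM, nearest 2.03).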

How the results depend on the processing

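No member passed the threshold under any alternative tried. The count over all genes was 0 with edgeR under every filter, scaling and left-out tumor tried, 0 with limma-voom, and 21 with DESeq2 (40 by adjusted p alone). At an unadjusted p under 0.05, edgeR called 1675 genes (694 higher, 981 lower) and DESeq2 1855, and with library size alone edgeR called 990 higher and 619 lower. With 1 tumor left out it called from 919 (without liraglutide tumor 5) to 2704 (without vehicle tumor 4), with 1046 without vehicle tumor 2 and 1070 without liraglutide tumor 3, so the shares over all genes depend on single tumors. The cause was not tested. Signs turned for Zeb2, Snai2, Epcam and Cdh2. Zeb2 had a log2 fold change of 0.0040 with all genes of at least 1 count, 0.02 with at least 10 counts in every tumor (where Epcam could not be fitted), 0.0048 with DESeq2 size factors, 0.05 with library size alone, 0.0050 with DESeq2 and 0.05 without the 3 liraglutide tumors of highest keratinocyte markers, and from -0.04 to 0.06 with each tumor left out. Snai2 had -0.03 with limma-voom and -0.19 without those 3 tumors, and from -0.14 to 0.19 with each tumor left out. With each tumor left out Epcam ran from -0.03 (without vehicle tumor 5) to 0.65, and Cdh2 from -0.0037 (without liraglutide tumor 1) to 0.16; Epcam had 0.86 with limma-voom, and without the 3 tumors Epcam had 0.57, Cdh2 0.20, Krt8 -0.04 and Krt18 -0.11. Levels per kilobase with all annotated exons were 13.5 for Cdh2, 682 for Vim, 6.37 for Zeb1 and 5.88 for Zeb2. Leaving out the 3 tumors and the all-exon lengths were chosen after seeing the data.

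Same-numbered tumors share only a number: their deviations correlated by 0.354, 0.565, -0.0753, 0.0681 and 0.389 (mean 0.26, against -0.0682 for different numbers). With the number as a replicate block, edgeR called 0 genes at the threshold and 2585 (14.8%) at an unadjusted p under 0.05, among them Cdh1 and Vim, the smallest adjusted p was 0.228, and the log2 fold change was -0.02 for Snai2 and 0.58 for Epcam. Epcam rests on 2 to 67 counts per tumor. Antisense transcripts overlap exons of Krt8 (101 bases, 48 to 72 counts), Zeb1 (24 to 68 counts) and Zeb2 (6 to 17 counts), and, in the annotation, Vim (586 bases) and Snai1 (206 bases), whose partners are not analysed here.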

Other observations

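Skeletal muscle markers summed to 41.3 to 271 CPM in the vehicle and 92.6 to 359 CPM in the liraglutide tumors. All 8 had a positive fold change, 1 of them (Myh1, a fast muscle myosin, log2 fold change 1.01) with an edgeR unadjusted p under 0.05 (beside 3.97% higher over all genes), and 0 passed the threshold. Endothelial markers summed to 113 to 184 and 116 to 149 CPM, with 5 of 9 higher, and Vwf, the endothelial clotting factor carrier, had -0.52 (edgeR adjusted p = 0.515). Adipocyte markers summed to 43.1 to 143 and 45.6 to 126 CPM, with 2 of 5 tested higher. Of 9 lung lineage markers tested 7 were higher, and Nkx2-1 was at 46.3 ± 33.4 CPM in vehicle and 91.8 ± 32.5 CPM in liraglutide tumors (SD, n = 5 each), a log2 fold change of 0.99 with an edgeR adjusted p of 0.520. Nkx2-1 was lowest in vehicle tumors 1, 2 and 3, the tumors with the lowest Cdh1.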
